A study of Mus musculus with 4 samples.

Results

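Cyclins are the regulatory subunits of the cyclin-dependent kinases, and their periodic synthesis and destruction drive the cell cycle. D-type cyclins act with Cdk4 and Cdk6 at the start of the cycle, E-type cyclins with Cdk2 at the entry into DNA synthesis, cyclin A2 with Cdk2 and Cdk1 from DNA synthesis onwards, and B-type cyclins with Cdk1 in mitosis. Cyclin C and cyclin H have roles in transcription, as partners of Cdk8 in the Mediator complex and of Cdk7 in the general factor TFIIH. Mouse ESCs cycle quickly and are known for high cyclin E activity. Myc is known as a regulator of cell growth and proliferation. It contacts DNA together with its partner Max, and the preferred site of the pair is the E-Box, CACGTG.

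The 10 cyclin genes examined were Ccna2, Ccnb1, Ccnb2, Ccnc, Ccnd1, Ccnd2, Ccnd3, Ccne1, Ccne2 and Ccnh, listed by name out of the 37310 genes of the GENCODE M1 annotation, of which 22380 are protein-coding. The series holds 4 ChIP-Seq samples of E14 mouse ESCs, and the peak lists for Bio-Myc and for Max, from 1 library each, were analysed. Bio-Myc was purified on streptavidin from 1 stable clone of E14 that expresses Biotin-tagged Myc from the ubiquitous EF1α promoter in addition to its own Myc, in cells that carry the biotin ligase BirA. Max was purified with the antibody sc197 from parental wild type E14 cells, so the lists differ in cells as well as in the protein purified. The controls were a streptavidin mock ChIP and an IgG ChIP, which enter here only through the peak calls, and the sources differ on whether the mock cells carried BirA. There are no replicates, so no value has an error between cultures and no difference was tested. The lists hold no expression values, so the cell type was not checked against marker genes and nothing here says how much of a cyclin the cells made. Every peak has a score, the −log10 of the p-value multiplied by 10, and the lowest score is 80, the p-value limit of 1e-08. There are 3962 Bio-Myc peaks (median score 129) and 11570 Max peaks (median score 160). Read numbers are not part of the lists, so the depth is unknown and scores are set beside each other only within a list, by their percentile in it.

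The E-Boxes under the peaks within 25 kb lay near the D-type and E-type cyclin genes and Ccnh. Of these 21 sites, 13 are shown first because the positions below refer back to them, and those not printed are the 7 of Ccnd3 and, at Ccne1, the 1 site under the Max peak alone. All are mm9 sequence, 5′ to 3′ on the strand of the gene, and the capitals mark the E-Box. The 4 E-Boxes of the strongest Ccnd1 peaks, followed by an E-Box nearer to the same TSS that no peak covered, were:
Ccnd1, chr7:152129366-152129395, 3604 bp upstream: gctcaggacgacCACGTGgcggcgaaacac
Ccnd1, chr7:152129177-152129206, 3415 bp upstream: tggagggctcagCACGTGaggctagacaac
Ccnd1, chr7:152128898-152128927, 3136 bp upstream: ccacgattgagcCACGTGgtcctgcctggc
Ccnd1, chr7:152128487-152128516, 2725 bp upstream: gcagccgtgtagCACGTGggctgccacgcg
Ccnd1, chr7:152126249-152126278, 487 bp upstream, under no peak: tcctgaattttaCACGTGttgatgaaattg

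At Ccnd2, the Max peaks upstream held the first 3 of these sites, and the last, nearest to the TSS, was under no peak:
Ccnd2, chr6:127103759-127103788, 2705 bp upstream: aagatttttcaaCACGTGgtcagagtggca
Ccnd2, chr6:127103661-127103690, 2607 bp upstream: cacgccgcacccCACGTGcggactcgcagc
Ccnd2, chr6:127102258-127102287, 1204 bp upstream: ccatgctatctgCACGTGccagcgtggcca
Ccnd2, chr6:127101639-127101668, 585 bp upstream, under no peak: ttcctctccacgCACGTGgctcggggcgga

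The sites of Ccne2 and Ccnh lay within 1 kb of a TSS, and the 3 of Ccne1 under peaks of both lists, of which 2 are printed as 1 stretch because they lie so close together, lay past the 3′ end of the gene:
Ccne2, chr4:11118046-11118075, 435 bp upstream: ggcccgggcgcgCACGTGgtgcggaccgtc
Ccne2, chr4:11118354-11118383, 127 bp upstream: gctccggctccgCACGTGgcgggcggcgcg
Ccnh, chr13:85328992-85329021, 4 bp upstream: agcagacgctggCACGTGaccgggacgtca
Ccne1, chr7:38870502-38870531: ccactttccagcCACGTGgcttggagcaag
Ccne1, chr7:38870207-38870255, a pair: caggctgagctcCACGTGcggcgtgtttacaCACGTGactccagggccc

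Every one of the 10 cyclin genes had a peak of at least 1 list within 1 kb of an annotated TSS, where 63.2% of the protein-coding genes had a peak of neither list. A Max peak was present at 9 of the 10 genes, all but Ccnc, against 34.8% of the protein-coding genes. A Bio-Myc peak was present at 4, Ccna2, Ccnc, Ccne1 and Ccne2, against 14.6%. Both were present at 3, Ccna2, Ccne1 and Ccne2, against 12.7%, and in all 3 a Bio-Myc peak overlapped a Max peak. The other 6 genes, Ccnb1, Ccnb2, Ccnd1, Ccnd2, Ccnd3 and Ccnh, had a Max peak alone. Over the protein-coding genes, this class is the 34.8% with a Max peak less the 12.7% with both. The cyclin genes have a median of 4.5 annotated TSSs against 2 for protein-coding genes, which gives them more windows. With the outermost TSS of each gene alone the same 9 and 4 genes were counted, against 32.2% and 13.6% of the protein-coding genes. The genes were listed by name with results of these peaks known, and the shares are given as a description.

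**Figure D1:**
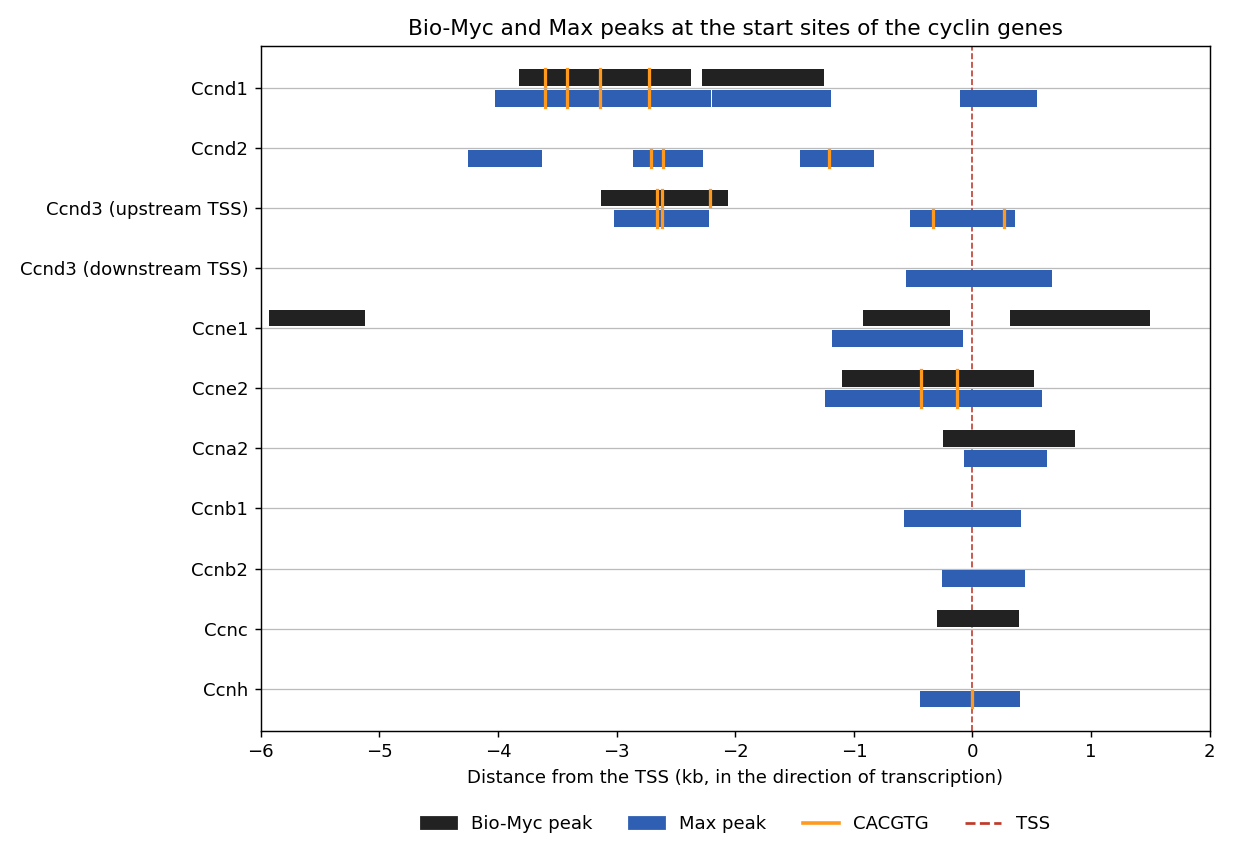
Peaks of the Bio-Myc list (black) and the Max list (blue) and the E-Boxes under them (orange) at each cyclin gene, by distance in kb from the outermost TSS in the direction of transcription, with a row for each of the 2 TSSs of Ccnd3. Peaks of both lists cover the TSS at Ccne2 and Ccna2, while at Ccnd1 they lie together from 1.2 kb upstream outwards and at Ccnd2 only Max peaks are seen.

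In the wider windows, Bio-Myc peaks were added at Ccnd1, Ccnd3 and Ccnb1. The peaks that added Ccnd3 and Ccnb1 covered a TSS of a neighbouring gene, Taf8 and Cenph, and that of Ccnb1 overlapped no Max peak. Within 5 kb of a TSS, Ccnd1 and Ccnd3 were added, so that Bio-Myc was found at 6 of the 10 genes, Max at 9 and both at 5, against 16.6%, 38.6% and 14.5% of the protein-coding genes. Within 25 kb, with Ccnb1 added, the counts were 7 for Bio-Myc, 9 for Max and 6 for both, against 26.8%, 51.3% and 24.7%. Near the limits were the Max peak of Ccnd2 at 827 bp, inside 1 kb, the Max and Bio-Myc peaks of Ccnd1 at 1.20 kb and 1248 bp, outside it, and the Bio-Myc peaks of Ccne1 at 5.12 kb and of Ccnb1 at 5.45 kb, outside 5 kb. Without a Bio-Myc peak within 25 kb were Ccnd2, Ccnb2 and Ccnh, whose nearest ones were 41.1 kb, 55.6 kb and 3406 kb away, and the nearest Max peak of Ccnc was 48.0 kb away. In all, 12 Bio-Myc peaks and 19 Max peaks lay within 25 kb of these genes, and their overlaps are given gene by gene below.

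**Figure D2:**
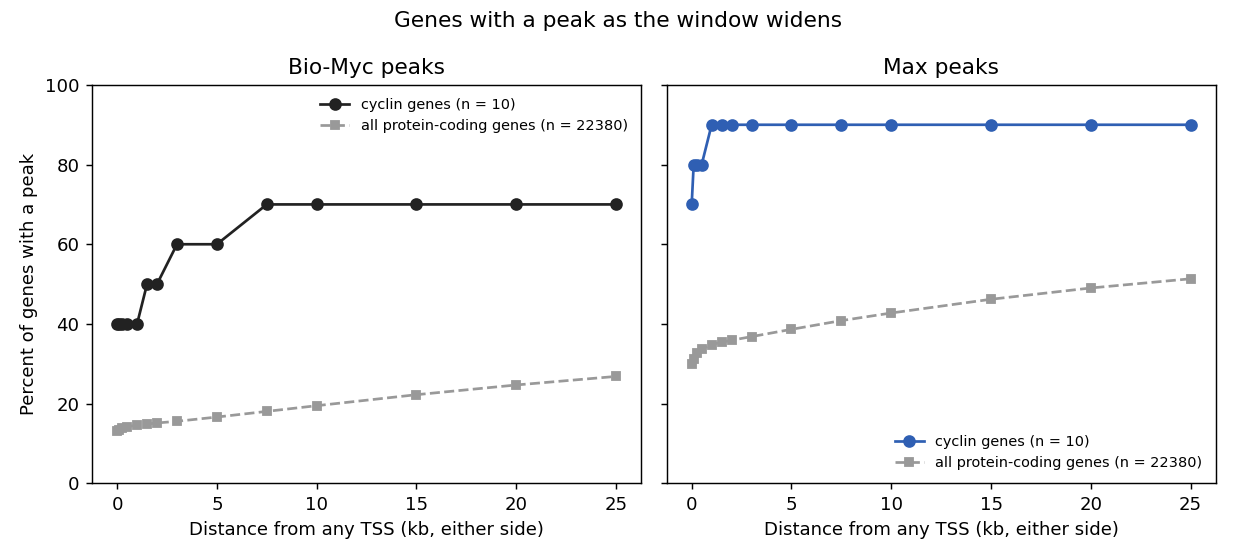
Percent of genes with a peak (vertical axis) within a distance of any TSS (horizontal axis, kb) for the 10 cyclin genes and for all 22380 protein-coding genes, with Bio-Myc on the left and Max on the right. The cyclin genes go from 40% at 1 kb to 70% at 7.5 kb for Bio-Myc and stay at 90% from 1 kb outwards for Max. Peaks that cover a TSS of another gene are counted too.

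Among the D-type cyclins, Ccnd1 (ENSMUSG00000070348.4, minus strand of chromosome 7, 152115836 to 152125774) had the highest-scoring Bio-Myc peak of all 10 genes. This peak spanned 152128150 to 152129601, its near edge 2.38 kb upstream of the TSS at 152125774, and scored 608, rank 86 of 3962 in the list. It lay entirely within a Max peak (152127979 to 152129796) that scored 1380.0, rank 67 of 11570, and both held the same 4 E-Boxes. Of these, the E-Box 3136 bp upstream was the most central, 37 bp from the midpoint in the Bio-Myc list and 25 bp in the Max list. Between them and the gene lay another pair of overlapping peaks without a CACGTG, Bio-Myc from 152127022 to 152128051 (score 262) and Max from 152126969 to 152127967 (score 299). The TSS itself was covered only by a Max peak with a score of 143, from 152125232 to 152125880, centred over coding sequence of the gene, and the E-Box 487 bp upstream was outside all of these. No TSS of another protein-coding gene lay nearer than 23.2 kb to any of them. The highest scores of both lists at Ccnd1 were thus upstream of the 1-kb window, and the lowest Max score was on the TSS.

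Ccnd2 (ENSMUSG00000000184.9, minus strand of chromosome 6, 127075797 to 127101066) had 3 Max peaks upstream and no Bio-Myc peak. They began 0.827, 2.27 and 3.63 kb from the TSS and scored 167.5, 85.9 and 168.3, so that the outer ones were near the middle of the Max list and the one between them was near its bottom. The nearest held 1 E-Box, 67 bp from its centre, the middle one 2 and the farthest none. All 3 were centred within 9330179D12Rik, a lincRNA gene on the other strand that overlaps the start of Ccnd2. None of them covered the TSS of Ccnd2.

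Ccnd3 (ENSMUSG00000034165.8, plus strand of chromosome 17, 47642000 to 47736632) has 2 annotated TSSs, at 47642000 and 47730416, and a Max peak covered each of them. The scores were 175 and 243. The peak at the upstream TSS held 2 E-Boxes, 333 bp upstream and 266 bp downstream of it, and the peak at the downstream TSS held none. Further Max peaks lay in the intron 6.1 kb (score 154) and 12.25 kb (score 96.3) into the gene, without an E-Box or a Bio-Myc peak. The Bio-Myc peaks near Ccnd3 were at the start sites of its neighbours. The one from 47638867 to 47639937, which scored 186, covered a TSS of Taf8, a subunit of the general factor TFIID, and began 2063 bp upstream of Ccnd3. Another from 47747669 to 47748798, with a score of 83.4 close to the limit of 80, covered a TSS of Bysl, a factor of small ribosomal subunit assembly, and of Med20, a Mediator subunit, 11.0 kb past the end of Ccnd3. Both overlapped a Max peak, and 4 E-Boxes at these sites were under peaks of both lists. Whether such peaks belong to Ccnd3 or to its neighbours cannot be told from position.

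Among the E-type cyclins, Ccne2 (ENSMUSG00000028212.10, plus strand of chromosome 4, 11118498 to 11131926) had the highest promoter score of the 10 genes in both lists. The Bio-Myc peak (11117399 to 11119014) scored 277, the 87.3rd percentile of the list, and the Max peak (11117253 to 11119086) scored 1580.3, rank 48 of 11570. Both covered the TSS at 11118498, and the Bio-Myc peak lay wholly within the Max peak over 1616 bp. Both held the 2 E-Boxes 435 and 127 bp upstream of that TSS, and the sequence under the Bio-Myc peak was 72.5% G and C. Of the 4 cyclin genes with a Bio-Myc peak within 1 kb of a TSS, Ccne2 alone had a CACGTG under it. Of the protein-coding genes with such a Bio-Myc peak, 49.7% had one. Within the central 200 bp of the Bio-Myc peak there was none, as these E-Boxes were 146 and 162 bp from its centre.

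Ccne1 (ENSMUSG00000002068.10, minus strand of chromosome 7, 38883003 to 38892553) had the most Bio-Myc peaks, 4 within 25 kb against 2 Max peaks. Upstream of the TSS at 38892553, a Bio-Myc peak with a score of 86.4 began at 0.19 kb and lay within a Max peak with a score of 251 that began at 82 bp. A Bio-Myc peak with a score of 119 from 38891056 to 38892237, which no Max peak overlapped, covered a TSS of a shorter coding transcript at 38891927. A further Bio-Myc peak 5.12 kb upstream, with a score of 103, had no Max peak either. None of these 4 peaks held a CACGTG. The strongest peaks of the locus were past the 3′ end of the gene. There, a Bio-Myc peak that scored 312 (38869670 to 38871162, 89.8th percentile) lay 11.8 kb beyond that end and 21.4 kb from the outermost TSS, within a Max peak (38869620 to 38871621) that scored 1387, rank 66 of 11570. Both peaks covered 3 E-Boxes, and the wider Max peak 1 more. The nearest TSS of any gene was that of a short Ccne1 transcript 13.2 kb from the Bio-Myc peak, and the next protein-coding gene, C80913, began 65.1 kb away. At Ccne1 as at Ccnd1, then, the highest score in both lists was outside the 1-kb window, and the linkage of these sites to the genes was not measured.

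Ccna2 (ENSMUSG00000027715.3, minus strand of chromosome 3, 36463788 to 36471072), which encodes the cyclin of DNA synthesis, had overlapping peaks on its TSS that ranked very differently in the lists. Bio-Myc (36470208 to 36471322) scored 184, the 71.5th percentile of its list. The Max peak (36470441 to 36471141) lay wholly inside this and scored 87.9, the 8.74th percentile. Both were centred over the 5′ UTR. No CACGTG was found under them or within 1 kb of a TSS of the gene. The Bio-Myc peak held 1 CACGCG, which differs from CACGTG by 1 base, in an intron 527 bp downstream of a TSS.

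The B-type cyclin genes among the 10, Ccnb1 and Ccnb2, had a Max peak on the TSS and no Bio-Myc peak there. At Ccnb1 (ENSMUSG00000041431.10, minus strand of chromosome 13, 101548605 to 101556525), the Max peak (101556116 to 101557099) scored 195, the 60.6th percentile. Its nearest Bio-Myc peak, from 101545272 to 101545955, scored 129.8 and covered a TSS of Cenph, which encodes a kinetochore protein, 2.65 kb past the end of Ccnb1 and 10.6 kb from its outermost TSS, and overlapped no Max peak. At Ccnb2 (ENSMUSG00000032218.6, minus strand of chromosome 9, 70255496 to 70269361), the only peak within 25 kb was that of Max, at 70268920 to 70269622, which scored 154, the 47.7th percentile. Neither gene had a CACGTG under a peak or within 1 kb of a TSS.

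The cyclins with roles in transcription differed in the list that held their promoter. Ccnc (ENSMUSG00000028252.14, plus strand of chromosome 4, 21654848 to 21687069) had a Bio-Myc peak (21654546 to 21655237) over its TSS and no Max peak within 25 kb. With a score of 98.7 this peak was at the 24.7th percentile of the list. Ccnh (ENSMUSG00000021548.4, plus strand of chromosome 13, 85329013 to 85363074) had a Max peak (85328569 to 85329414) that scored 129, the 36.2nd percentile, and no Bio-Myc peak within 25 kb. Its E-Box ended 4 bp before the TSS at 85329013 and was 15 bp from the centre of the peak, the closest to a TSS among these genes. A peak missing from a list called at a fixed p-value does not show that the protein was absent.

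Set beside all bound protein-coding genes, the promoter scores of the cyclins were spread over the range. By the strongest Bio-Myc peak within 1 kb, Ccnc stood at the 20.2nd percentile of the 3275 bound genes, Ccne1 at the 36.8th, Ccna2 at the 65.1st and Ccne2 at the 83.4th. By the strongest Max peak, among 7788 genes, they ran from Ccna2 at the 5.19th percentile to Ccne2 at the 99.6th. The others from lowest to highest were Ccnh, Ccnd1, Ccnb2, Ccnd2, Ccnb1, Ccnd3 and Ccne1, between the 25.7th and 63.3rd. When the p-value limit was lowered to 1e-15, Bio-Myc peaks remained at the promoters of Ccna2 and Ccne2, Max peaks at 6 genes and both at Ccne2 alone. Over the protein-coding genes, the shares at that limit were 6.85% for Bio-Myc, 22.6% for Max and 5.85% for both.

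**Figure D3:**
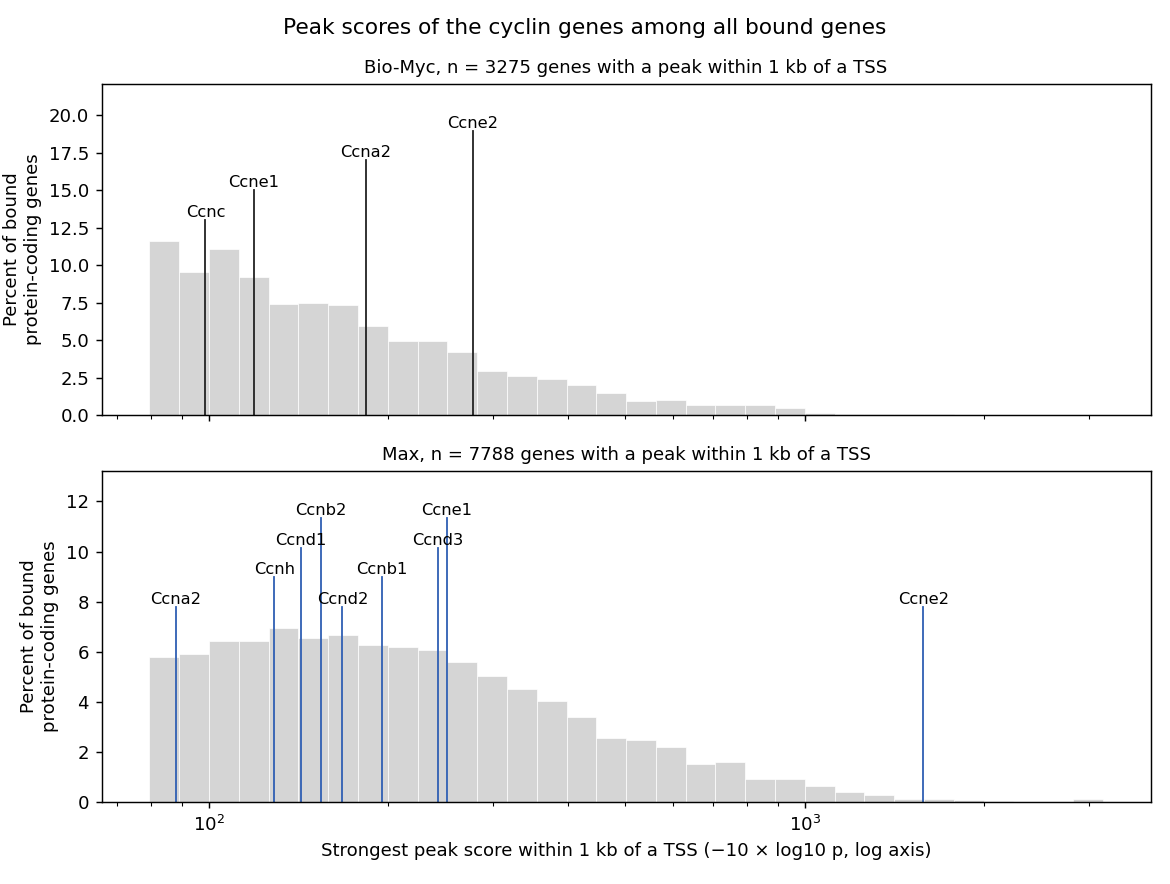
Distribution of the strongest peak score within 1 kb of a TSS (horizontal axis, log scale) over the bound protein-coding genes, as percent of genes in each bin (vertical axis), for Bio-Myc above and Max below, with the cyclin genes marked by lines whose height carries no value. Ccne2, at 277 and 1580.3, is the highest cyclin gene in both panels, and Ccna2 is the lowest in the Max panel.

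In total, 21 distinct E-Boxes lay under the peaks within 25 kb of the cyclin genes, and 13 of them were under peaks of both lists. Ccnd3 had 7, Ccnd1 and Ccne1 4 each, Ccnd2 3, Ccne2 2 and Ccnh 1, while Ccna2, Ccnb1, Ccnb2 and Ccnc had none. At Ccnd3, only the E-Boxes 333 bp upstream and 266 bp downstream of a TSS were under a peak on its own TSS. The others, with all 4 that both lists shared there, were under peaks on TSSs of Taf8, Bysl or Med20. For these counts no share over all genes is given. Of the 9 genes with a Max peak within 1 kb, 4 (Ccnd2, Ccnd3, Ccne2 and Ccnh) had a CACGTG under it, against 38.6% of the protein-coding genes with such a peak. Regardless of peaks, 5 of the 10 genes had a CACGTG within 1 kb of a TSS, against 39.0% of all protein-coding genes. At Ccnd1 and Ccnd2 the E-Box in this window was the one under no peak, and the E-Box under the nearest Max peak of Ccnd2 was farther out. The region within 1 kb of the outermost TSS had a median of 53.2% G and C (47.5% at Ccnb2 to 70.5% at Ccne2) against 51.1% for protein-coding genes. Its observed over expected CpG was 0.613 in the median (0.328 at Ccnd3 to 0.872 at Ccne2) against 0.468. The part of CpG content in the number of Max peaks was not tested.

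Of 16 further cyclin genes, 10 (62.5%) had a Max peak within 1 kb, 5 (31.2%) a Bio-Myc peak and 4 (25%) both. Over the protein-coding genes the shares were 34.8%, 14.6% and 12.7%, and no difference from these or from the listed cyclins was tested. The genes with both were Ccnf, Ccnjl, Ccnl2 and Ccnt1, the last a partner of Cdk9 in transcription elongation. Ccna1, Ccnb3, Ccng2 and Ccnyl1 had no peak within 25 kb. Ccna1 encodes the germline form of cyclin A. Of the 5 with a Bio-Myc peak within 1 kb and the 10 with a Max peak, only Ccnl2, a cyclin linked to splicing, had an E-Box under it. It had 1 under each of its peaks, which scored 223 in the Bio-Myc list and 172 in the Max list. Of the protein-coding genes with such a peak, 49.7% for Bio-Myc and 38.6% for Max had an E-Box under it.

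Among 30 genes of cyclin partners and regulators, 21 (70%) had a Max peak within 1 kb, 12 (40%) a Bio-Myc peak and 11 (36.7%) both. For all protein-coding genes these shares were 34.8%, 14.6% and 12.7%, and no difference was tested. The cyclin-dependent kinases with both were Cdk1, Cdk4, Cdk6, Cdk7 and Cdk8, with Bio-Myc scores from 136 at Cdk4 to 520 (519.8) at Cdk6. Within 1 kb, Cdk4 and Cdk6, the partner kinases of the D-type cyclins, had peaks of both lists, while the D-type cyclin genes had Max peaks alone. This contrast depends on the window, as Ccnd1 had Bio-Myc peaks 1248 bp and 2.38 kb upstream, the latter with a score of 608. Cdk2, the partner of the E-type cyclins, had a peak of neither list within 1 kb, and its nearest Max peak was 8019 bp away. For the transcriptional pairs, Cdk8 had both peaks where Ccnc had Bio-Myc alone, and Cdk7 had both where Ccnh had Max alone. Further genes with both were Cks1b, Cdc25a, Wee1, Rbl1, E2f3 and E2f4. Wee1, the kinase that restrains Cdk1, had the highest Bio-Myc score of the 30, 680 (679.6), with 3 E-Boxes under the peak. No peak lay within 25 kb of Cdk19, Cdc25c, Rb1, Skp2, Fbxw7 or Med13.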

How the data were processed

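The authors aligned their Illumina reads to mm9 with Bowtie 0.12.7, keeping unique hits with at most 2 mismatches, merged duplicate reads and called enriched regions in MACS 1.4.1 against the mock or IgG ChIP at a p-value of 1e-08. The deposited values are a score per peak. Unique mapping leaves out repeated sequence, and under a fixed p-value the unknown depth affects how many peaks a list holds. Peak positions, read as 0-based starts and given here 1-based, were set beside NCBIM37 sequence and GENCODE M1 (Ensembl 65), the same assembly as mm9. All 3 gene lists matched the annotation by symbol. A gene was counted where a peak overlapped by 1 bp the region within 1 kb of any TSS. Distances run from the TSS to the nearest base. CACGTG, its own reverse complement, was counted under whole peaks, and CACGCG on both strands. Named were the 10 listed genes, the other genes with both peaks within 1 kb or none within 25 kb, and genes whose TSS shares a peak. Members, lists and limits were chosen with earlier results of these data known. Cdk2, Ccnl2, Wee1, and the Ccnd2 lincRNA were singled out after their values were seen. Python 3.11.15 and matplotlib 3.10.9 were used, and 10 of 10 steps gave the known answers on simulated data. Other windows, p-value limits, TSS sets, overlaps and motifs were tried.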

Additional observations from a re-analysis of the deposited data

How the results depend on the processing

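Of 39 alternative counts over the cyclin genes, 29 were within 1.5 times the count reported. Within 25 kb, 7 genes in place of 4 had a Bio-Myc peak and 6 in place of 3 had both peaks. From 3 kb upstream to 2 kb downstream, and within 5 kb, 5 had both. With the limit at 1e-15, 2 had a Bio-Myc peak and 1 had both, by the construction of the stricter limit. The windows wider than 1 kb added Ccnd3 through a peak on a TSS of Taf8, and 25 kb added Ccnb1 through one on a TSS of Cenph. For E-Boxes under a Bio-Myc peak, reported at 1 gene, the count was 0 in the central 200 bp, 3 with CACGTG or CACGCG and 3 within 5 kb. These counts have no share over all protein-coding genes beside them, and CACGCG lay under 55.8% of the Bio-Myc peaks at coding promoters. For E-Boxes under a Max peak, reported at 4 genes, it was 2 in the central 200 bp. The outermost TSS and the TSSs of protein-coding transcripts left the 3 counts of genes with peaks (Bio-Myc, Max, both) as reported, and so did the overlap rules for the last of these. No paired analysis was possible because each ChIP has 1 library, and for the same reason no library could be left out. The unknown depth limits what a missing peak shows.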

Other observations

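The bases next to the E-Boxes were also counted. Of the 21 E-Boxes under peaks within 25 kb of the cyclin genes, 14 (66.7%) had the form CCACGTG on either strand. The shares were 62.0% of the 2718 E-Boxes under all Bio-Myc peaks and 58.5% of the 5596 under all Max peaks.

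The related sequence CACGCG was counted in the same way. Of the 5 Bio-Myc peaks within 1 kb of a TSS, only that of Ccna2 and that upstream of Ccne1 held it. Of the 10 Max peaks there, only those at the downstream TSS of Ccnd3, at Ccne1 and at Ccnh did. At Ccna2, Ccne1 and the downstream TSS of Ccnd3 the peaks that held it had no CACGTG, and at Ccnh it lay 11 bp downstream of the TSS, and its CACGTG 4 bp upstream. Over all peaks within 1 kb of a TSS of a protein-coding gene, a CACGCG on either strand was found under 55.8% of 2900 in the Bio-Myc list and 48.5% of 7569 in the Max list.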
